A study of Bos taurus with 6 samples.

Results

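The genes described here are 10 components of the contractile actomyosin cortex: the scaffold genes SHROOM1, SHROOM2 and SHROOM3, the non-muscle myosin II heavy chain genes MYH9, MYH10 and MYH14, the regulatory light chain gene MYL9, the kinase genes ROCK1 and ROCK2, and the small GTPase gene RHOA. They were taken by gene symbol from a table of 15314 named bovine genes, and all 10 were found once and passed the filter on low values, a mean of at least 10. The set was drawn up with earlier results of the same libraries known. SHROOM1 had been noted for its small p in the NOTCH1 knockdown, and MYH14 for its small p in the RBPJ knockdown. The differences of the 10 genes are therefore given as descriptions with their standard errors, and no p of a member is printed. Counts of members past a threshold are given only beside those of all genes, and nothing is read from them.

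Polyadenylated RNA was sequenced from pools of in vitro fertilized bovine embryos, collected as late morulae on day 6. One group had been injected with small interfering RNA against NOTCH1, a receptor of the NOTCH pathway. Another had been injected with small interfering RNA against RBPJ, the DNA-binding partner of the cleaved receptor in the nucleus. The control embryos had received a nonspecific small interfering RNA, so all 3 groups had been injected. Each group had 2 libraries of 15 embryos, and the labels do not say whether the replicates came from separate oocyte collections, so the spread between them may be technical. RNA came from whole embryos, so fewer cells of a type and less RNA per cell cannot be told apart.

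Non-muscle myosin II pulls on actin filaments beneath the plasma membrane. RHOA in its active form switches on the kinases ROCK1 and ROCK2, which phosphorylate the myosin light chain and restrain the phosphatase that reverses this. SHROOM proteins bind actin and carry these kinases to the apical junctions of epithelial cells. In mouse embryos cortical actomyosin tension, together with cadherin adhesion, flattens blastomeres against each other at compaction, the step that turns loose cells into a compact morula.

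The values in the deposited table, called scaled counts here, are, as judged from their spacing, the authors' read counts after division by scaling factors, which may include a factor per gene for length. Library totals ran from 10365695 to 10815554, and the approximate depth read from the spacing of low values was 9633439 to 13664743 reads, the most in replicate 1 of the RBPJ knockdown. RBPJ stood at 121 and 94.5 in the RBPJ knockdown, against 447 and 391 in the control, and it was the 1 gene that passed in that comparison (limma, adjusted p = 0.00143). NOTCH1 stood at 48.0 and 49.5 in the NOTCH1 knockdown, against 69.6 and 140 in the control, and did not pass (limma, adjusted p = 0.634). The NOTCH1 level of RBPJ knockdown libraries was 50.0 and 125, the lower of which is close to both NOTCH1 knockdown values. The stage markers POU5F1, CDX2 and GATA3 were present in every library, with GATA3 at its lowest, 391, in replicate 2 of the RBPJ knockdown. Of the full lists, 8 of 8 early trophectoderm and 7 of 8 pluripotency and inner cell mass genes passed the filter. SOX2 had no row. TFAP2A was low, from 6.37 in replicate 1 of the NOTCH1 knockdown to 31.1 in replicate 1 of the control. Of markers of other cell types, 6 of 10 smooth muscle, 4 of 12 striated muscle, 5 of 7 fibroblast, 3 of 10 cumulus and granulosa and 5 of 7 blood and immune genes passed the filter. TNNT2 was at no more than 2.05, POSTN 1.51, HAS2 10.9 and PTPRC 11.3 in any library. Other members of these lists were not low: PDGFRA reached 995, COL1A1 346, MYH7 195, MYH6 166, HBA 1380 and CSF1R 1829. Of the cumulus and granulosa genes, CYP19A1 reached 172, and of the smooth muscle genes SMTN reached 487.

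SHROOM1 was higher in NOTCH1 knockdown embryos than in either other group, and MYH14 was higher in RBPJ knockdown embryos than in either other group. These were the members whose groups did not overlap and whose means differed by 1.5-fold or more. Means of MYH9, MYH10, SHROOM3 and MYL9 were higher in both knockdowns than in the control, as were those of SHROOM1 and MYH14. For MYH10 and MYL9 both knockdowns overlapped the control, as did the RBPJ knockdown for MYH9. ROCK1, ROCK2 and RHOA had group means within a narrow range. MYL9 and SHROOM2 varied most between replicates.

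**Figure D1:**
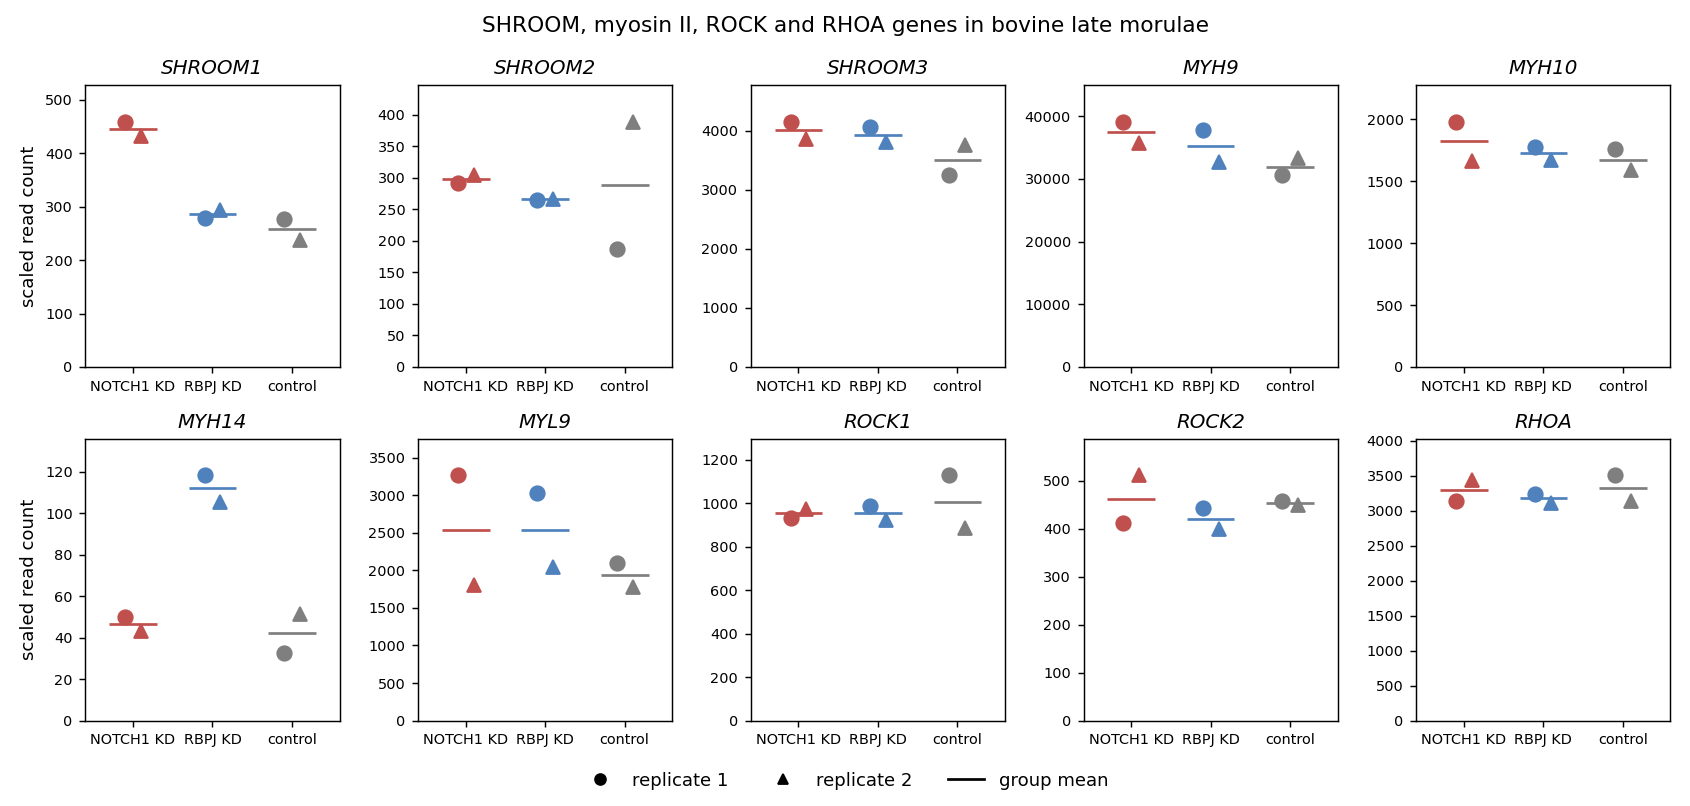
Scaled read count of each gene (linear vertical axis from 0, one scale per gene) in NOTCH1 knockdown, RBPJ knockdown and control libraries, with circles for replicate 1, triangles for replicate 2 and lines for group means of 2 libraries. SHROOM1 sits at 459 and 432 in the NOTCH1 knockdown, above 4 other libraries between 238 and 294, and MYH14 sits at 118 and 106 in the RBPJ knockdown, above 4 other libraries between 32.7 and 51.3.

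Among the scaffolds, SHROOM1 had scaled counts of 459 and 432 in the NOTCH1 knockdown, 279 and 294 in the RBPJ knockdown, and 277 and 238 in the control. Both NOTCH1 knockdown libraries were above the other 4, and the RBPJ knockdown libraries lay just above the higher control library. SHROOM1 encodes an actin-binding protein of the SHROOM family. The mean was 445 ± 19.3 in the NOTCH1 knockdown and 257 ± 27.2 in the control (SD, n = 2 each), a fold change of 1.73. On the log2(scaled count + 1) scale the difference was 0.79 with a standard error of 0.16 (limma). The lower NOTCH1 knockdown library was still 1.56 times the higher control library. SHROOM1 ranked 212 from the top among 12070 genes by this log2 difference.

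In the RBPJ knockdown SHROOM1 averaged 286 ± 10.4, a log2 difference of 0.16 ± 0.16 (SE) from the control. Set directly against the RBPJ knockdown, the NOTCH1 knockdown was higher in SHROOM1 by a log2 difference of 0.64 ± 0.16 (SE). By replicate number the gap between both knockdowns was 0.72 for replicate 1 and 0.55 for replicate 2. Against the control, the SHROOM1 log2 difference in the NOTCH1 knockdown was 0.73 for replicate 1 and 0.86 for replicate 2. Both NOTCH1 knockdown libraries were above all others, so any pairing of libraries gives positive differences. The shared sign therefore adds no further evidence.

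SHROOM3, the family member known for apical constriction of the neural plate in vertebrates, had scaled counts of 4150 and 3855 in the NOTCH1 knockdown, 4058 and 3800 in the RBPJ knockdown, and 3252 and 3764 in the control. All 4 knockdown libraries were above both control libraries, but the smallest gap, between replicate 2 of the RBPJ knockdown and replicate 2 of the control, was a ratio of 1.01. The log2 difference was 0.19 ± 0.11 (SE) in the NOTCH1 knockdown and 0.17 ± 0.11 (SE) in the RBPJ knockdown. Both comparisons use the same 2 control libraries. By replicate number the NOTCH1 knockdown difference in SHROOM3 was 0.35 for replicate 1 and 0.034 for replicate 2, and replicate 1 of the control was the lowest of the 6 libraries.

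SHROOM2, a scaffold of cortical actin and cell junctions, had scaled counts of 291 and 304 in the NOTCH1 knockdown, 264 and 267 in the RBPJ knockdown, and 188 and 389 in the control. The control libraries lay on either side of all 4 knockdown libraries. Knockdown replicates of SHROOM2 differed by a ratio of 1.04 in the NOTCH1 group and 1.01 in the RBPJ group, against 2.07 in the control. The log2 difference from the control was 0.14 ± 0.26 (SE) in the NOTCH1 knockdown. Leaving out replicate 1 of the control gave -0.39, and leaving out replicate 2 of the control gave 0.66. In the RBPJ knockdown the SHROOM2 log2 difference was -0.025 ± 0.26 (SE), and the same omissions gave -0.55 and 0.50.

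As a ratio within each library, SHROOM1 stood at 111 and 112 per 1000 scaled counts of SHROOM3 in the NOTCH1 knockdown, 68.7 and 77.3 in the RBPJ knockdown, and 85.1 and 63.3 in the control. No correction for transcript length was made here, so it compares libraries and not the abundance of one scaffold with that of another. Both NOTCH1 knockdown libraries were above all others, and both RBPJ knockdown libraries lay within the control range. The summed scaled counts of the 3 scaffolds were 4900 and 4590 in the NOTCH1 knockdown, 4601 and 4360 in the RBPJ knockdown, and 3717 and 4391 in the control. SHROOM4, the remaining family member, is not among the 10 genes and is given because it completes the family. It had scaled counts of 282 and 288 in the NOTCH1 knockdown, 339 and 302 in the RBPJ knockdown, and 295 and 283 in the control.

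MYH9, the heavy chain of non-muscle myosin IIA, had scaled counts of 39136 and 35707 in the NOTCH1 knockdown, 37825 and 32757 in the RBPJ knockdown, and 30562 and 33356 in the control. The NOTCH1 knockdown libraries were above both control libraries, while replicate 2 of the RBPJ knockdown lay between the control libraries. The log2 difference from the control was 0.23 ± 0.11 (SE) in the NOTCH1 knockdown and 0.14 ± 0.11 (SE) in the RBPJ knockdown. By replicate number it was 0.36 and 0.098 in the NOTCH1 knockdown, and 0.31 and -0.026 in the RBPJ knockdown. After quantile normalization the MYH9 difference in the NOTCH1 knockdown was 0.10.

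MYH10, the heavy chain of non-muscle myosin IIB, had scaled counts of 1982 and 1668 in the NOTCH1 knockdown, 1780 and 1674 in the RBPJ knockdown, and 1762 and 1590 in the control. The groups overlapped in every comparison of MYH10. Its log2 difference from the control was 0.12 ± 0.12 (SE) in the NOTCH1 knockdown and 0.044 ± 0.12 (SE) in the RBPJ knockdown.

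MYH14, the heavy chain of non-muscle myosin IIC, had scaled counts of 50.1 and 43.1 in the NOTCH1 knockdown, 118 and 106 in the RBPJ knockdown, and 32.7 and 51.3 in the control. Both RBPJ knockdown libraries were above the other 4, and the NOTCH1 knockdown lay within the control range. The mean was 112 ± 8.98 in the RBPJ knockdown and 42.0 ± 13.2 in the control (SD, n = 2 each), a fold change of 2.66. On the log2(scaled count + 1) scale the difference was 1.43 with a standard error of 0.30 (limma), the 21st highest of 12070 genes. The lower RBPJ knockdown library was 2.06 times the higher control library. The control replicates of this low transcript differed by a ratio of 1.57, and the log2 difference was 1.82 for replicate 1 and 1.03 for replicate 2.

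In the NOTCH1 knockdown MYH14 averaged 46.6 ± 4.97, a log2 difference of 0.18 ± 0.30 (SE) from the control. Directly compared, the NOTCH1 knockdown was lower than the RBPJ knockdown in MYH14 by a log2 difference of -1.25 ± 0.30 (SE). That value was -1.22 for replicate 1 and -1.28 for replicate 2. Replicate 1 of the RBPJ knockdown was the deepest library, and replicate 2 of that group, at an approximate depth of 10159582 reads, had an MYH14 level that differed from it by a ratio of 1.12.

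Within each library MYH14 made up 0.122% and 0.115% of the scaled counts of the 3 heavy chains in the NOTCH1 knockdown, 0.298% and 0.306% in the RBPJ knockdown, and 0.101% and 0.147% in the control. These shares, too, were taken without a correction for length. The difference in MYH14 thus lay in a very small part of the heavy chain counts. MYH9 held 95.1% and 95.4% in the NOTCH1 knockdown, 95.2% and 94.8% in the RBPJ knockdown, and 94.5% and 95.3% in the control. MYH10 held 4.81% and 4.46% in the NOTCH1 knockdown, 4.48% and 4.85% in the RBPJ knockdown, and 5.45% and 4.54% in the control. The groups overlapped in the shares of MYH9 and MYH10. The sum of the heavy chains was 41168 and 37418 in the NOTCH1 knockdown, 39723 and 34537 in the RBPJ knockdown, and 32357 and 34997 in the control, so that it followed MYH9.

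**Figure D2:**
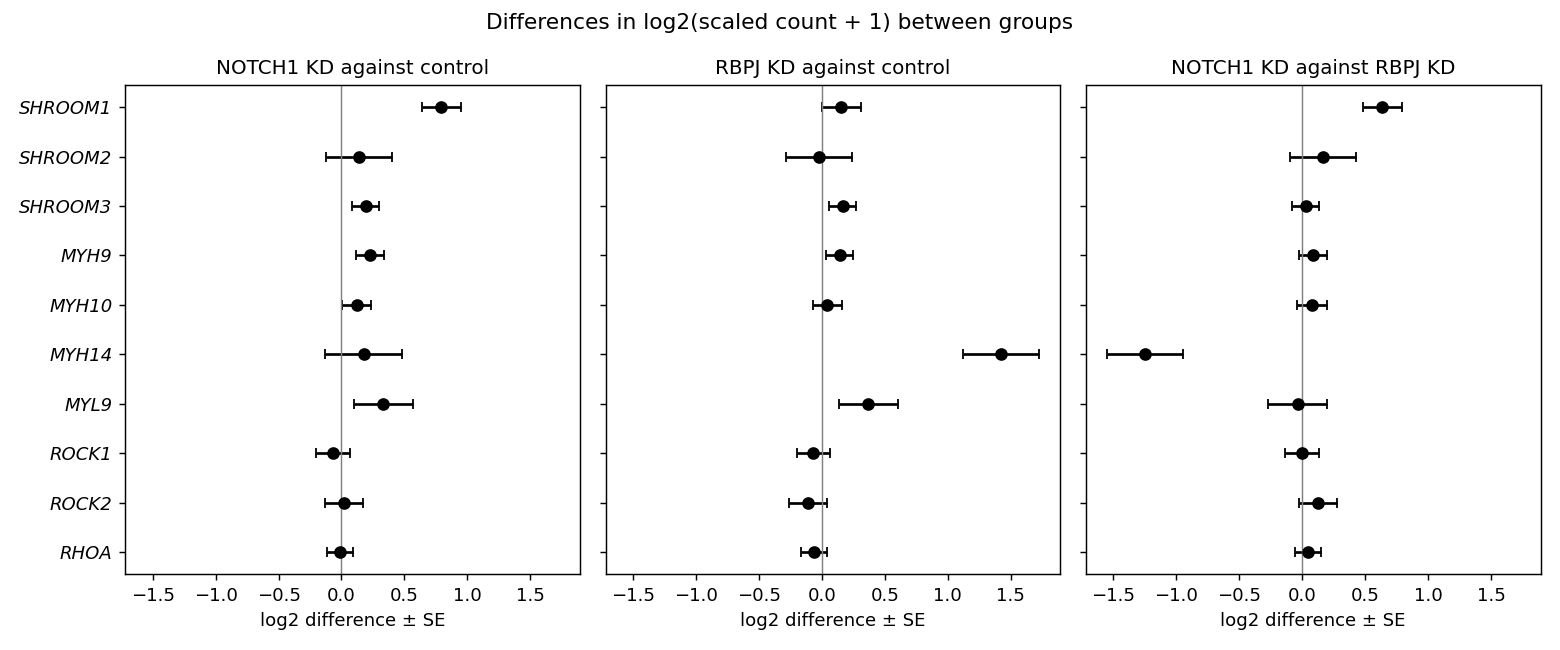
Difference in log2(scaled count + 1) between groups for each gene, with dots for the limma estimate and bars for its standard error, in panels for the NOTCH1 knockdown against the control, the RBPJ knockdown against the control, and the NOTCH1 knockdown against the RBPJ knockdown. SHROOM1 stands at 0.79 in the left panel and MYH14 at 1.43 in the middle panel, and in the right panel SHROOM1 at 0.64 and MYH14 at -1.25 lie on opposite sides of 0.

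MYL9, a regulatory light chain whose phosphorylation activates the motor, had scaled counts of 3267 and 1806 in the NOTCH1 knockdown, 3035 and 2047 in the RBPJ knockdown, and 2097 and 1776 in the control. Replicate 1 was the higher library in each group, and replicate 2 of both knockdowns lay within the control range. The log2 difference from the control was 0.33 ± 0.23 (SE) in the NOTCH1 knockdown and 0.37 ± 0.23 (SE) in the RBPJ knockdown. For replicate 1 alone these were 0.64 and 0.53, and for replicate 2 alone 0.024 and 0.20. Without replicate 1 of the NOTCH1 knockdown the MYL9 difference in that group was -0.096. Light chain genes of this family are alike in sequence, so reads may be split between MYL9 and MYL12A or MYL12B in a way the values do not show.

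The summed scaled counts of 8 early trophectoderm markers, most of them from KRT8 and KRT18, were also higher in replicate 1 of each group. Marker by marker, replicate 1 was higher for 6 of 8 in the NOTCH1 knockdown, 5 of 8 in the RBPJ knockdown and 4 of 8 in the control. They were 38595 and 31987 in the NOTCH1 knockdown, 36075 and 22201 in the RBPJ knockdown, and 30013 and 27087 in the control. MYL9 is also abundant in smooth muscle. The 10 smooth muscle markers summed to 669 and 753 in the NOTCH1 knockdown, 717 and 901 in the RBPJ knockdown, and 613 and 612 in the control, with MYH11 at 12.6 to 23.6 and TAGLN at 0.769 to 10.6 across libraries. In both knockdowns this sum was higher in replicate 2, where MYL9 was lower, and SMTN and SYNPO2 made up most of it. Marker by marker, 7 of 10 were higher in replicate 1 in the NOTCH1 knockdown, 1 of 10 in the RBPJ knockdown and 6 of 10 in the control. The part of either marker list in the MYL9 values was not tested.

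**Figure D3:**
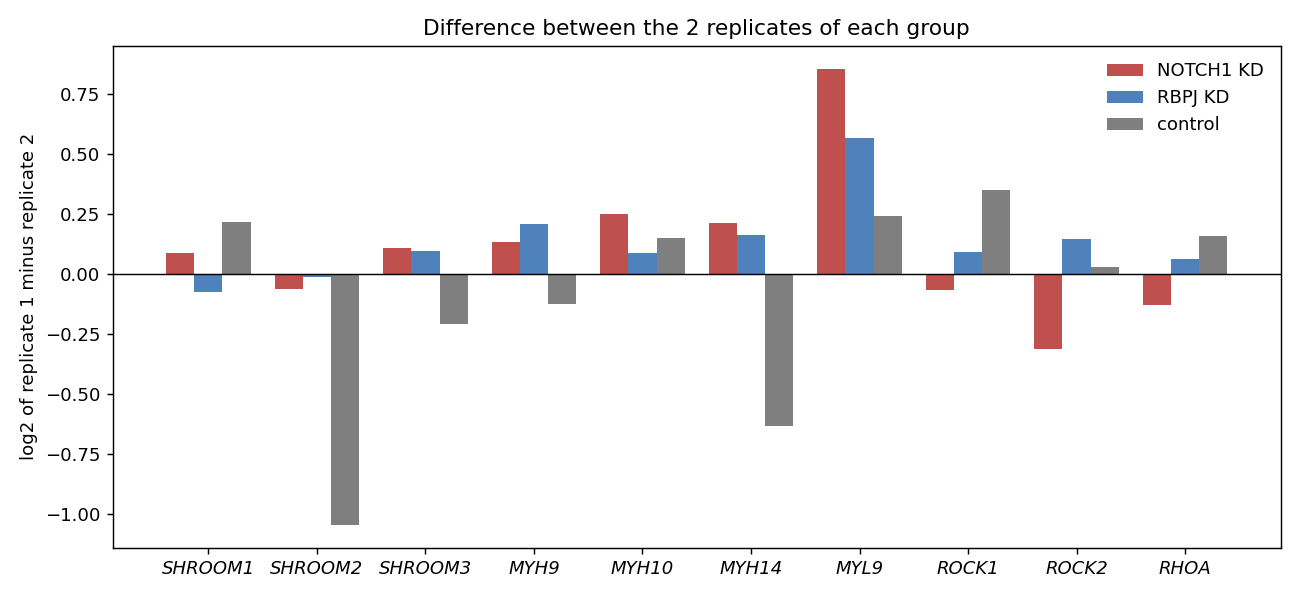
Difference in log2(scaled count + 1) between replicate 1 and replicate 2 of the NOTCH1 knockdown, RBPJ knockdown and control for each gene, with bars starting at 0. MYL9 shows 0.85, 0.57 and 0.24, all above 0, whereas SHROOM2 and MYH14 show their largest replicate difference in the control, at -1.05 and -0.63.

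Replicate 1 was the higher library in all 3 groups for MYL9 and MYH10, and replicate 2 for SHROOM2. Among 12070 genes tested, 19.5% had replicate 1 higher and 18.2% replicate 2 higher in all 3 groups. The pooled within-group SD on the log2 scale was 0.43 for both SHROOM2 and MYL9, above that of 87.4% of genes for SHROOM2 and 87.5% for MYL9. RHOA had an SD of 0.088, at the percentile 15.8, and SHROOM1 one of 0.0997, at the percentile 20.7.

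ROCK1, one of the kinases that phosphorylate the light chain, had scaled counts of 932 and 976 in the NOTCH1 knockdown, 986 and 925 in the RBPJ knockdown, and 1129 and 886 in the control. All 4 knockdown libraries lay between the control libraries. Its log2 difference from the control was -0.069 ± 0.13 (SE) in the NOTCH1 knockdown and -0.067 ± 0.13 (SE) in the RBPJ knockdown.

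ROCK2, the other kinase of this kind, had scaled counts of 412 and 511 in the NOTCH1 knockdown, 442 and 399 in the RBPJ knockdown, and 457 and 448 in the control. Both RBPJ knockdown libraries were below both control libraries, with the closest pair at a ratio of 0.986, while the NOTCH1 knockdown libraries lay on either side of the control. The log2 difference was 0.019 ± 0.15 (SE) in the NOTCH1 knockdown and -0.11 ± 0.15 (SE) in the RBPJ knockdown. The ratio of ROCK1 to ROCK2 scaled counts was 2.26 and 1.91 in the NOTCH1 knockdown, 2.23 and 2.32 in the RBPJ knockdown, and 2.47 and 1.98 in the control, and the groups overlapped.

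RHOA, the GTPase upstream of both kinases, had scaled counts of 3138 and 3438 in the NOTCH1 knockdown, 3242 and 3109 in the RBPJ knockdown, and 3504 and 3139 in the control. The groups overlapped, and the highest library was 1.13 times the lowest, the narrowest range of the 10 genes. Its log2 difference from the control was -0.014 ± 0.10 (SE) in the NOTCH1 knockdown and -0.063 ± 0.10 (SE) in the RBPJ knockdown. With 2 libraries a group, these values do not show that the levels of ROCK1, ROCK2 and RHOA were equal.

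By limma with Benjamini-Hochberg adjustment over 12070 genes, 0 of the 10 members passed an adjusted p of 0.05 in the NOTCH1 knockdown, where 0% of all genes passed and 880 had an unadjusted p below 0.05. In the RBPJ knockdown 0 members passed against 0.00829% of all genes, with 524 below an unadjusted 0.05. In the NOTCH1 knockdown against the RBPJ knockdown 0 members passed, again against 0.00829%, with 439 below an unadjusted 0.05. With the replicate number as a block, 1 member, SHROOM1, passed in the NOTCH1 knockdown against 1.14% of all genes, 138 in number. With the block 0 members passed in the RBPJ knockdown, against 0.0994% of genes, and 0 in the NOTCH1 knockdown against the RBPJ knockdown, against 0.124%. Since SHROOM1 and MYH14 were chosen from these contrasts, nothing is read from the counts.

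Groups did not overlap for 3 of the 10 members in the NOTCH1 knockdown, SHROOM1, SHROOM3 and MYH9, where 35.9% of all genes tested did not overlap. In the RBPJ knockdown 4 members did not overlap, SHROOM1, SHROOM3, MYH14 and ROCK2, against 32.1% of all genes. Between the knockdowns the 3 were SHROOM1, SHROOM2 and MYH14, against 33.0%. These shares are close to those of the members. Adding a difference in means of 1.5-fold or more left SHROOM1 in the NOTCH1 knockdown, against 6.16% of genes, and MYH14 in the RBPJ knockdown, against 4.42%. Both SHROOM1 and MYH14 were left between the knockdowns, against 4.76% of genes.

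The median log2 difference of the 10 members was 0.16 in the NOTCH1 knockdown, beside 0.0059 over all genes tested, with 8 higher and 2 lower by sign. In the RBPJ knockdown the median was 0.093, beside -0.0018 over all genes, with 6 higher and 4 lower by sign. Between the NOTCH1 and RBPJ knockdowns it was 0.062, beside 0.011, with 7 higher and 3 lower. Within both replicate numbers the sign was the same for 5 of 10 members in the NOTCH1 knockdown and for 7 of 10 in the RBPJ knockdown. The members' summed scaled counts made up 0.531% and 0.494% of the named total in the NOTCH1 knockdown, 0.532% and 0.468% in the RBPJ knockdown, and 0.449% and 0.469% in the control, and MYH9 supplied most of each sum.

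The genes whose profile over the 6 libraries was closest to that of SHROOM1, by the root-mean-square difference of centred log2(scaled count + 1) values, were SLC37A1, KLHDC8B and FAM221A, at 0.085, 0.10 and 0.11. SLC37A1 had scaled counts of 96.0 and 87.3 in the NOTCH1 knockdown, 56.1 and 51.4 in the RBPJ knockdown, and 50.7 and 46.8 in the control. Closest to MYH14 were MID2, ZCCHC12 and MUC1, at 0.23, 0.28 and 0.28. MID2 and MUC1 are low transcripts that reached the minimum mean of 10 through the RBPJ knockdown libraries, so their likeness to MYH14 is in part set by the filter. MUC1, a mucin of apical epithelial surfaces, had 9.60 and 7.72 in the NOTCH1 knockdown, 17.9 and 21.8 in the RBPJ knockdown, and 8.86 and 12.5 in the control.

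The wider machinery was described over 111 tested genes in 5 lists that exclude the 10 members. By limma 0 of 111 passed in any of the 3 comparisons, with 17 in the NOTCH1 knockdown, 4 in the RBPJ knockdown and 8 between the knockdowns at an unadjusted p below 0.05. Over all 12070 genes 7.29%, 4.34% and 3.64% lay below that p in these comparisons. The 17 in the NOTCH1 knockdown depended on the fit. It was 7 without the variance trend, 13 after quantile normalization and 31 with the replicate block. Over all 12070 genes the counts in these 3 settings were 812, 830 and 1474. No excess in the lists is therefore read from the 17. With the replicate block 3 of 111 passed in the NOTCH1 knockdown, beside 1.14% of all genes, and 0 in the other comparisons. The 3 were higher in the knockdown, as were 89 of the 138 genes that passed over the whole table. Those 3 were ARHGEF1, an exchange factor that activates RHOA (log2 difference 0.52, limma adjusted p = 0.395 without the block), FLNA, an actin crosslinker (0.55, adjusted p = 0.353 without the block), and SEPTIN9, a filament-forming septin (0.41, adjusted p = 0.432 without the block). FLNA had scaled counts of 4133 and 3632 in the NOTCH1 knockdown, 3936 and 3246 in the RBPJ knockdown, and 2937 and 2389 in the control, and all 4 knockdown libraries were above the control. ARHGEF1 had 822 and 778 in the NOTCH1 knockdown, 659 and 574 in the RBPJ knockdown, and 589 and 527 in the control.

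In the NOTCH1 knockdown the 111 genes had a median log2 difference of 0.069, with 77 higher and 34 lower by sign, beside 51.1% of all genes higher. The lists hold more abundant genes than the whole set: 98 of the 111 had a mean of at least 100, against 8451 of 12070. The part of expression level in the signs, here and in the other comparisons, was not tested. Actin, assembly and crosslinking genes had a median of 0.12 over 41 genes, and links of membrane and cadherin to actin one of 0.11 over 24. Light chain kinases, phosphatase subunits and other kinases had a median of 0.087 over 18 genes. Other myosin II chains had a median of -0.21 over 6. No gene in these lists passed without the block, and the following are values. Of the 3 with the smallest p in each list described here, MYL6B, MYL4 and MYL6, all light chains, had log2 differences of -0.72, -0.53 and 0.21. PAK1, PPP1R12C and LIMK1, which act on the light chain, its phosphatase or cofilin, had 0.40, 0.25 and 0.25. ARPC1B, a subunit of the actin-nucleating complex, had 0.54, and PRKCZ, VCL and NF2, of apical polarity, cadherin anchoring and the cortex, had 0.44, 0.36 and 0.25.

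The same 111 genes in the RBPJ knockdown had a median log2 difference of 0.030, with 63 higher and 48 lower by sign, beside 49.7% of all genes higher. List medians ran from -0.059 for other myosin II chains to 0.095 for light chain kinases, phosphatase subunits and other kinases. None passed, and the values that follow are of the 3 genes with the smallest p within each list described here, whatever their rank over all 111. Of the other myosin II chains, MYL6, MYL4 and MYH11 had 0.12, -0.29 and -0.17. PPP1R12C, CIT and DAPK3 had 0.22, 0.21 and 0.16, and FLNA, ACTN1 and ANLN had 0.43, 0.23 and -0.26. VCL, CGN and SLC9A3R1 had 0.29, -0.25 and 0.22. Between the knockdowns the median was 0.049, with 73 higher and 38 lower in the NOTCH1 knockdown, beside 52.7% of all genes higher. Again by the smallest p within each list, MYL6B, MYL12A and MYL4 had -0.63, 0.10 and -0.24, and LIMK1, PAK1 and SSH2 had 0.36, 0.31 and -0.30. PFN1, SEPTIN9 and CORO1B had 0.26, 0.21 and 0.32, and CGN, SPTBN1 and PRKCZ had 0.36, -0.30 and 0.31.

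**Figure D4:**
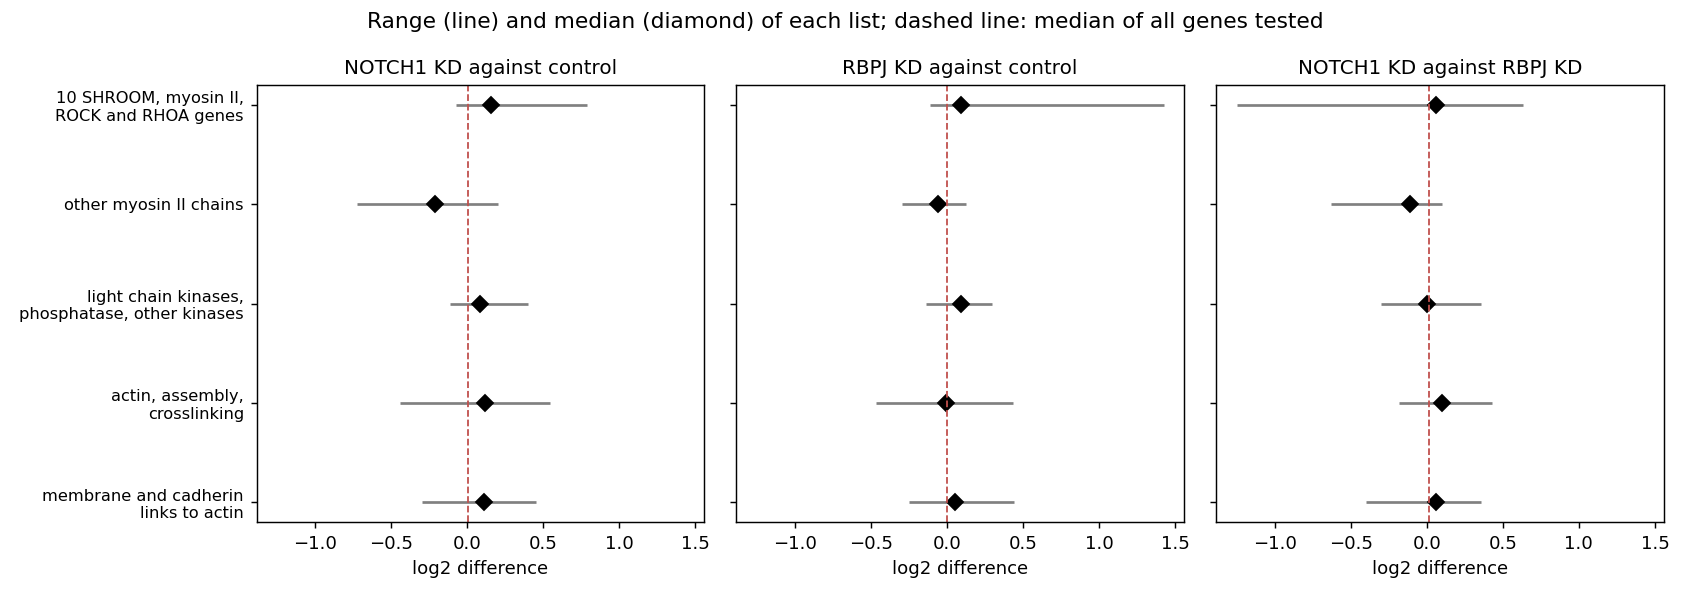
Range (line) and median (diamond) of the log2 difference in the 10 genes and in 4 further lists of actomyosin genes, in panels for the NOTCH1 knockdown against the control, the RBPJ knockdown against the control, and the NOTCH1 knockdown against the RBPJ knockdown, with the median of all genes tested as a dashed line. The diamonds lie between -0.21 and 0.16, and the widest ranges of the 10 genes come from SHROOM1 and MYH14.

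In the RefSeq gene table of the assembly ARS-UCD2.0, which differs from the build of the files, 5 of the 10 genes overlap another entry: SHROOM3, MYH9, MYH10, ROCK1 and ROCK2. Only MYH10 and ROCK2 overlap a protein-coding entry. SHROOM3 overlaps a long noncoding RNA and a tRNA, MYH9 a pseudogene and ROCK1 a tRNA. SHROOM1 and MYH14 overlap none. Whether reads were assigned by strand is not given in the sources used here, so reads of overlapping genes may be shared.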

How the data were processed

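The deposited table holds a signal value per gene and library. As judged from the values, the authors divided read counts by scaling factors: 80.6% to 82.5% of low values lie within 0.1 of a multiple of 1 step per library. A further factor per gene, such as one for transcript length, can neither be shown nor dismissed from them. Too few values were multiples to recover whole reads, so no count-based test was run. The submitters' processing notes name the build ARS-UCD1.2 and the tools DESeq2 and Salmon 0.14.1 without saying what each did. The sources used here do not give the annotation or filters.

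Of 17922 rows, 2551 without a name (6.20% to 7.22% of a total) were left out, and the row with the highest mean kept each of 57 repeated symbols. The 12070 genes with a mean of at least 10 were fitted as log2(value + 1), which understates folds of low genes, by limma 3.58.1 in R 4.3.3. The model held 3 group means over 6 libraries, with a variance trend. It was run on simulated data with changes larger than those of the 10 members, an even dispersion and no effect of the replicate number. That run does not show how the fit performs on differences and spreads like those seen here. Adjustment was Benjamini-Hochberg over all genes, with a threshold of 0.05. The standard error is moderated by limma, which draws the spread of each gene toward a trend over all genes. The number of libraries limits its precision. With 2 libraries a group, an unmoderated standard error of a difference equals the within-group SD. For MYL9 and SHROOM2 the moderated values, 0.23 and 0.26, lay below that SD of 0.43. For SHROOM1 the moderated value, 0.16, lay above its SD of 0.0997.

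The labels do not say what a replicate number marks. Differences between replicates 1 and 2 correlated between groups across 12070 genes at 0.21 for the NOTCH1 and RBPJ knockdowns, 0.17 for the NOTCH1 knockdown and control, and 0.20 for the RBPJ knockdown and control. All 3 exceeded 0.1, so the numbers were taken as a possible pairing, from the data and not the design. The pairing was used for differences by replicate number and for the fit with a block. The main fit, its calls and its standard errors leave it out.

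The members and lists were chosen with earlier results of these data known. Named genes are the 10 members, the targeted genes, list genes past the threshold, the 3 with the smallest p in each list and comparison, and the 3 profiles closest to SHROOM1 and MYH14. The summary of 1 of the 5 lists is not reported here. Plots used Python 3.11.15 and matplotlib 3.10.9. The added GFP and RFP transcripts were not used here, so RNA per embryo was not analysed.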

Additional observations from a re-analysis of the deposited data

How the results depend on the processing

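Counts of calls and log2 differences of members were recomputed without each library in turn, with a replicate block, with the 2 groups compared alone, and without the variance trend. The other settings were quantile or median-of-ratios scaling, pseudocounts of 10 or 0.1, a minimum mean of 100 or none, and, for counts, a threshold of 0.1. Heavy chain shares and the ratio of ROCK1 to ROCK2 are taken within a library, so median-of-ratios scaling cannot change them. With 2 libraries a group, leaving out either library always keeps the value within 1 SD of the mean. Their recomputation therefore says nothing about stability. List medians, counts of groups that do not overlap and closest profiles were not recomputed. The count of genes called was 0 in the NOTCH1 knockdown, 1 in the RBPJ knockdown and 1 between the knockdowns. In both comparisons the 1 gene was RBPJ, the target of the small interfering RNA. An equal count in another setting need not be the same gene. With the replicate block these counts were 138, 12 and 15, and that of the actomyosin lists in the NOTCH1 knockdown was 3. Without the variance trend both counts of 1 became 0; the cause was not tested. Over omitted libraries the counts ran from 0 to 1 in the NOTCH1 knockdown, from 1 to 3 in the RBPJ knockdown and from 0 to 3 between the knockdowns. The count of 1 in the NOTCH1 knockdown and that of 3 in the RBPJ knockdown arose without replicate 2 of the control. Between the knockdowns the 0 arose without replicate 1 of the NOTCH1 knockdown and the 3 without replicate 1 of the RBPJ knockdown. No other change of setting moved a count of the lists from 0.

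Of 447 log2 differences of members recomputed, 417 stayed within 1 SD of the within-group spread and 30 did not. Of those 30, 2 came from quantile normalization, both of MYH9, and the rest from an omitted library. Many of the 417 could not move. The filters, the 2 groups alone, the variance trend, the block and omission of a library outside the comparison leave a log2 difference unchanged. The 417 therefore overstates stability. Between the knockdowns quantile normalization gave MYH9 -0.042, against 0.087. The SHROOM1 difference in the NOTCH1 knockdown ran from 0.68 to 0.90 over omitted libraries and that of MYH14 in the RBPJ knockdown from 1.11 to 1.74. The groups did not overlap for either gene in these comparisons, so leaving out a library could not change the sign. MYH14 had no value at a minimum mean of 100. Scaling shifted the median of all genes by less than 0.1 on the log2 scale. Levels per coding length were not run because no transcript lengths were used here. MYH14 had the fewest scaled counts of the 10 genes, while SHROOM2 and MYL9 had the largest within-group SD.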
